A study of Mus musculus with 6 samples.

Results

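The genes described here are the protein-coding members of the TGF-beta and BMP pathways in hearts of Pontin cTG and WT mice infused with Ang-II. They were chosen by symbol from the gene count table: the TGF-beta ligands and receptors, the Smads, the BMPs and their receptors, the activin receptors, the inhibin beta subunits, the growth differentiation factors, the latent TGF-beta binding proteins, and *Smurf1* and *Smurf2*. Matching by symbol also took in *Bmp1*, *Bmp2k*, *Tgfb1i1* and *Tgfbrap1*, 4 genes that are named for the pathway but have other functions. This rule found 58 of the 56748 genes in the table, without use of any measured value. Of these, 41 passed the filter on low counts and were tested, among 13888 genes tested in all.

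Pontin cTG mice carried a flag-tagged human Pontin cDNA behind the α-MHC promoter, which is active in cardiomyocytes, on a C57Bl/6 background, and WT mice were their littermates without the transgene. All mice were males, 10 weeks old at the start of Ang-II. Both groups received Ang-II from an osmotic pump, at daily doses of 1.5 mg per kg body weight over 14 days. No heart without Ang-II was among these samples. RNA of 3 hearts per group was sequenced, 1 library for each heart, and holds transcripts of all cell types of the heart besides the cardiomyocytes that carry the active transgene. The comparison asks which genes differ between the genotypes under Ang-II, a peptide that drives hypertrophy and fibrosis of the heart.

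TGF-beta ligands are secreted in a latent form bound to LTBP proteins in the extracellular matrix. Once released, they join type I and type II receptor kinases, which phosphorylate Smad2 and Smad3, whereas BMPs act through Smad1, Smad5 and Smad9. The phosphorylated Smads bind Smad4 and enter the nucleus, Smad6 and Smad7 counteract them, and the Smurf ubiquitin ligases mark Smads and receptors for degradation. In the heart the TGF-beta branch is known for fibroblast activation and matrix deposition. BMP signals are best known there for valve and chamber development.

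Library totals ran from 12436822 to 16888124 counts, and the WT libraries were the smaller ones. Normalised counts are counts scaled to a common library size by TMM, and levels of different genes are compared per kilobase of the gene length in the table. Defining cardiomyocyte markers were high throughout, with 231421 to 245173 normalised counts per kilobase summed over 9 markers. Of 5 atrial markers, *Sln* and *Myl7* stayed under 10 counts in every library, and the other 3 (*Myl4*, *Nppa* and *Dkk3*) passed the filter. The 5 summed to 8990 normalised counts per kilobase in Pontin cTG replicate 2, against 443 to 2145 in the other hearts. *Nppa*, which ventricles express under load, is part of this sum and was itself highest in that library. The share of atrial tissue was not tested. Pontin cTG replicate 2 stood apart on the first principal component (47.9% of the variance), with a score of 52.0 against -24.2 to 17.1 for the other 5 libraries. The methods of the study mention the exclusion of an outlier but tie it to no library or data set, and 3 mice per group are given for these data. All 6 libraries were used here. Mouse *Ruvbl1*, which encodes endogenous Pontin, averaged 218 ± 2.72 (WT) and 247 ± 5.79 (Pontin cTG) normalised counts (SD, n = 3 mice each). It is no measure of the transgene, whose human reads may not map to the mouse gene.

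The upstream sequences below belong to a selection of the genes described here. *Ltbp1* (both annotated starts), *Tgfbr1* (first of 2 starts) and *Bmpr1a* had WT and Pontin cTG levels that did not overlap. *Bmp2k* and *Tgfbrap1* did not overlap either, and their windows are not shown. *Ltbp2* and *Gdf15* (second of 2 starts) were highest in a single Pontin cTG library. The other start of *Tgfbr1* and that of *Gdf15* are not described. Each run holds the 250 bases before a RefSeq transcription start on GRCm38.p6, written 5′ to 3′ on the strand of the gene. Capitals mark matches on either strand to 3 motifs: CAGAC, the core bound by Smad3 and Smad4, GGCGCC, a GC-rich motif of BMP-responsive Smads, and GGAATG, the motif of TEAD factors. The windows are chr17:75005279-75005528 (+) and chr17:75178531-75178780 (+) for *Ltbp1*, chr4:47352972-47353221 (+) for *Tgfbr1*, chr14:34502547-34502796 (-) for *Bmpr1a*, chr12:84876492-84876741 (-) for *Ltbp2*, and chr8:70632096-70632345 (-) for *Gdf15*.
Ltbp1, first start: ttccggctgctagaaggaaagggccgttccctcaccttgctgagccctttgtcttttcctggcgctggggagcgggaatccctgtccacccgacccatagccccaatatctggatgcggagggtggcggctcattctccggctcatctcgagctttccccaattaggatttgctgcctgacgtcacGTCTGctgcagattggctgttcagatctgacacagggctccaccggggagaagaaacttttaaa
Ltbp1, second start: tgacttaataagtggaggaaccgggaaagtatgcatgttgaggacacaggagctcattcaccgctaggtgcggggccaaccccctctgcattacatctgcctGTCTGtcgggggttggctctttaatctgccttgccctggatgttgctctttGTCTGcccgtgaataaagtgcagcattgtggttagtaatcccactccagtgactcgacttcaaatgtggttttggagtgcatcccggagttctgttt
Tgfbr1: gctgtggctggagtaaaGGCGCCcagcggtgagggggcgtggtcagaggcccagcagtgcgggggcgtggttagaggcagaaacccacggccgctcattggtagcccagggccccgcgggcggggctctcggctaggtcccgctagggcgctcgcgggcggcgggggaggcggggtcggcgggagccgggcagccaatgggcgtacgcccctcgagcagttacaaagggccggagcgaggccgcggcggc
Bmpr1a: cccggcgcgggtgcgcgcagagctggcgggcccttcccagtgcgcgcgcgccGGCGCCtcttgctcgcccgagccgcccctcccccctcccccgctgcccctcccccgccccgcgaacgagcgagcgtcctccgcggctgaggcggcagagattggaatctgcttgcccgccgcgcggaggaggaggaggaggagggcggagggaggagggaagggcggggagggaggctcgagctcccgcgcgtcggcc
Ltbp2: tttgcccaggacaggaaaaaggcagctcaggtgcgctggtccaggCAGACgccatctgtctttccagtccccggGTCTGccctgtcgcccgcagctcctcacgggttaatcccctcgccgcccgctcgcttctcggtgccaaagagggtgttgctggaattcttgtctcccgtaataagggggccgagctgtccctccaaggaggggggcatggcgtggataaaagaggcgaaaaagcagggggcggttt
Gdf15: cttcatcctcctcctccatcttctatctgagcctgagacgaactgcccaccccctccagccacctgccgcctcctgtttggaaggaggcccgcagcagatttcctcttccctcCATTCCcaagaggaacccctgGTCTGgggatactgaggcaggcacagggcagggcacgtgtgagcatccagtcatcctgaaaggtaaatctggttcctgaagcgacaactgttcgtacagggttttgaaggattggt

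Both *Ltbp1* windows and the printed windows of *Ltbp2* and *Gdf15* held CAGAC, with 1 match in the first *Ltbp1* window and in *Gdf15*, and 2 in the second *Ltbp1* window and in *Ltbp2*. The printed receptor windows held GGCGCC once each and no CAGAC, in sequence of 74.8% GC for *Tgfbr1* and 78.8% for *Bmpr1a*. The *Gdf15* window also held 1 TEAD motif. Over the 32851 RefSeq windows of this length, CAGAC was present in 42.2%, GGCGCC in 9.59% and GGAATG in 12.6%. Among the 55 windows of the 43 pathway genes that matched, the shares were 47.3%, 20.0% and 7.27%, at a median GC content of 64.0% against 52.4% for all windows. A further motif, TGANTCA of AP-1, was in 6.75% of all windows and in none of the 55. No 2 matches overlapped, and a match is a description of letters, not a measured binding site.

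No pathway gene passed the test between Pontin cTG and WT hearts: 0 of 41 reached an adjusted p under 0.05 (edgeR quasi-likelihood, Benjamini-Hochberg), and the smallest adjusted p was 0.999. DESeq2 and limma-voom with sample quality weights also called 0 pathway genes. The background in edgeR was the same, with 0% of the 13888 genes tested called, while DESeq2 called 1 gene and limma-voom 3 among all genes. At an unadjusted p under 0.05, edgeR gave 1 pathway gene (2.44%), *Ltbp1*, against 2.05% of all genes. DESeq2 gave *Ltbp1* alone as well, beside 0.847% of all genes with at least 1 count, and limma-voom gave 7 (17.1%, against 5.72% of all genes). In simulated data of the same size, edgeR called 50 of 100 genes changed by 2-fold and 84 of 100 changed by 4-fold, so that smaller differences would often go uncalled with 3 mice per group. The simulation changed 200 genes and drew each gene independently. No simulated library shifted many genes together, as Pontin cTG replicate 2 did, so these rates are not the power of the real data.

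Most pathway genes had a slightly lower level in Pontin cTG hearts. Of the 41, 27 had a log2 fold change below 0 (65.9%, against 49.8% of all genes tested), and the median was -0.10, against 0.00 for all genes. For scale, the median deviation of single libraries from the WT mean had a pooled SD of 0.086 within groups. That SD describes single hearts and is no error of the difference between groups. Replicates 2 and 3 of Pontin cTG were the low libraries. The median deviation of the pathway genes from their WT mean was -0.18 and -0.17 in these, 0.02 in replicate 1, and -0.04 to 0.06 in the WT libraries. The median log2 fold change was -0.05 when WT replicate 1 was dropped, and with Pontin cTG replicates 1 or 2 dropped it was -0.17 and -0.06.

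**Figure D1:**
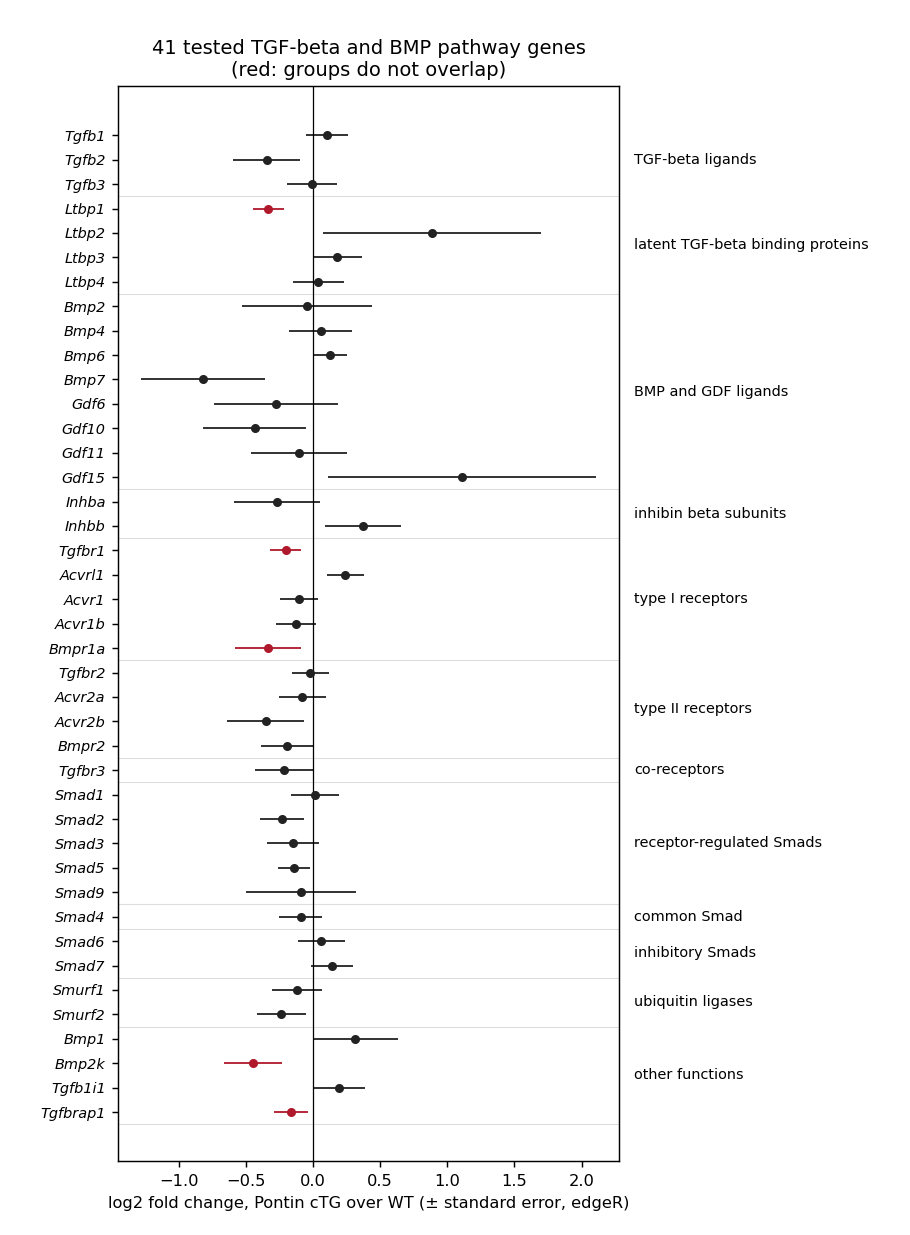
Log2 fold change of Pontin cTG over WT for each of the 41 tested pathway genes (x axis; points are edgeR estimates and bars their standard errors), grouped by role. Red points are the 5 genes whose groups do not overlap; 27 of the 41 estimates lie left of 0, and *Gdf15* (1.11) and *Ltbp2* (0.89) have the widest bars.

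In 5 of the 41 genes every Pontin cTG library lay below every WT library (12.2%, against 3.63% of all genes tested), and in none did every Pontin cTG library lie above (against 4.70%). The lower ones were *Ltbp1*, *Tgfbr1*, *Bmpr1a*, *Bmp2k* and *Tgfbrap1*. The last 2 are among the 4 genes that are named for the pathway but have other functions. Under library size alone as the scaling, *Bmp2k* and *Tgfbrap1* overlapped, and *Tgfbrap1* also overlapped in DESeq2 and without a filter on low counts. The absence of higher genes depended mainly on Pontin cTG replicate 3. Without Pontin cTG replicate 3, 5 pathway genes lay above WT (9.38% of all genes did) and 4 below (8.48%). Dropping Pontin cTG replicate 2 left 1 above (11% of all genes were) and 8 below (10.5%). Dropping WT replicate 3 left 1 above (9.62% of all genes) and 5 below (7.2%).

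*Ltbp1*, which tethers latent TGF-beta to the matrix, gave 67.3, 74.0 and 66.6 normalised counts per kilobase in the WT hearts, replicates 1 to 3, and 52.3, 57.0 and 55.8 in the Pontin cTG hearts. The highest Pontin cTG heart was thus well below the lowest WT heart. Group levels were 69.3 ± 4.08 (WT) and 55.1 ± 2.44 (Pontin cTG; SD, n = 3 each), and the log2 fold change was -0.33 (standard error 0.12). Its unadjusted p ranked 80 among all genes, and its adjusted p was 0.999 (edgeR quasi-likelihood, Benjamini-Hochberg). Leaving out each library in turn kept the estimate between -0.36 and -0.28.

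*Tgfbr1*, the type I receptor (ALK5) through which TGF-beta phosphorylates Smad2 and Smad3, had 63.4, 60.4 and 60.9 normalised counts per kilobase in WT against 53.5, 55.4 and 51.7 in Pontin cTG. Both groups were narrow, at 61.6 ± 1.58 and 53.5 ± 1.86 (SD, n = 3 each). The log2 fold change was -0.20 (standard error 0.11), or 0.870 of the WT level, and ranged from -0.23 to -0.18 when each library was left out.

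*Bmpr1a* (ALK3), a type I receptor for BMPs, was at 267, 272 and 260 normalised counts per kilobase in WT and at 256, 126 and 251 in Pontin cTG. The separation from WT was small in replicates 1 and 3, and replicate 2 had less than any other library by a wide margin. The log2 fold change of -0.34 (standard error 0.25) became -0.07 without Pontin cTG replicate 2.

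*Bmp2k*, a kinase named for its induction by BMP2, gave 17.7, 18.0 and 14.2 normalised counts per kilobase in WT and 13.8, 13.8 and 8.99 in Pontin cTG. WT replicate 3 lay just above the Pontin cTG libraries. The log2 fold change was -0.45 (standard error 0.21), and -0.27 without Pontin cTG replicate 3. *Tgfbrap1*, which binds TGF-beta receptors and Smad4, had 38.5, 35.5 and 35.5 in WT and 35.4, 30.0 and 32.4 in Pontin cTG on the same scale. Here the groups all but touched, and the log2 fold change was -0.16 (standard error 0.12), or -0.11 without Pontin cTG replicate 2. Leaving out a library cannot by itself make separate groups overlap, and only the renewed scaling can. Under the renewed scaling *Tgfbrap1* overlapped without WT replicate 1, WT replicate 3 or Pontin cTG replicate 3. The groups of *Ltbp1*, *Tgfbr1*, *Bmpr1a* and *Bmp2k* stayed apart in each such fit, which is no independent support.

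**Figure D2:**
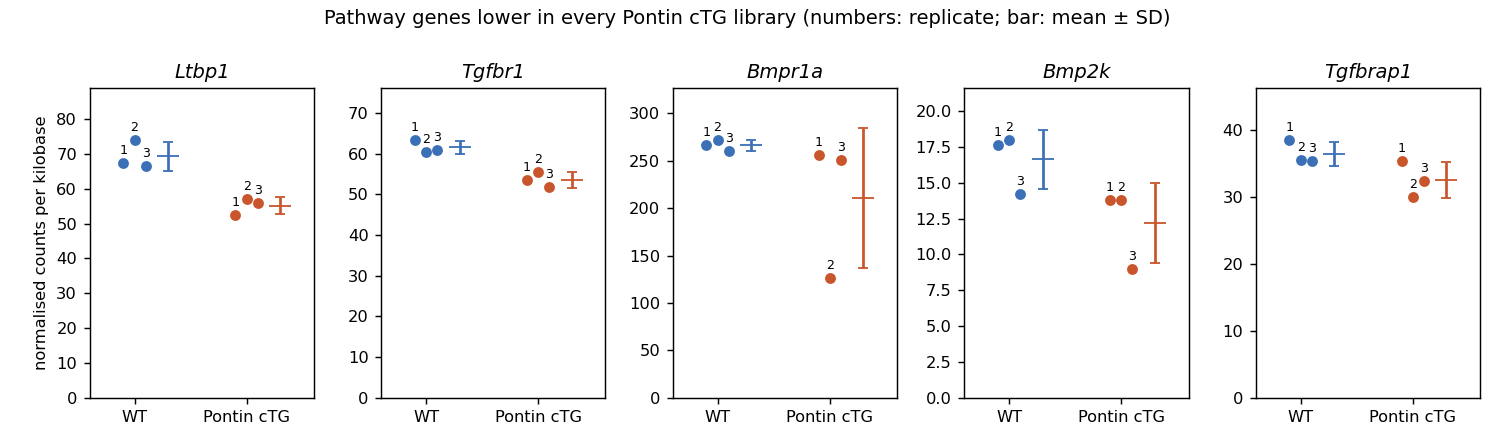
Normalised counts per kilobase (y axis, from 0) of the 5 pathway genes whose Pontin cTG libraries all lie below the WT libraries. Points are single hearts numbered by replicate, and bars are mean ± SD of 3 hearts; the gap is clear in *Ltbp1* and *Tgfbr1*, is small in *Bmpr1a* apart from replicate 2, and is narrow in *Bmp2k* and *Tgfbrap1*.

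The groups of the 3 TGF-beta ligands overlapped, with 1 estimate above 0 and 2 below. *Tgfb1*, the isoform most tied to fibrosis, had 87.4, 70.3 and 82.3 normalised counts per kilobase in WT and 88.9, 97.8 and 71.0 in Pontin cTG, with overlapping groups (log2 fold change 0.10, standard error 0.16, but -0.0021 without Pontin cTG replicate 2 and 0.017 when WT replicate 2 was dropped). *Tgfb2* ranged from 29.0 to 47.8 in WT and from 22.3 to 39.2 in Pontin cTG (log2 fold change -0.34, standard error 0.25). That estimate was -0.17 and -0.61 when Pontin cTG replicates 1 and 2 were dropped in turn, and -0.13 when WT replicate 2 was. *Tgfb3* gave 96.7, 110 and 105 in WT and 91.5, 135 and 84.0 in Pontin cTG, where replicate 2 was the highest library and the log2 fold change was -0.01 (standard error 0.19).

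By level per kilobase over the 6 hearts, *Tgfb3* (104) came before *Tgfb1* (82.9) with overlapping ranges, and *Tgfb2* (33.4) lay below both without overlap. As a share of the 3 ligands in each library, *Tgfb1* made up 36.2% ± 4.81 in WT and 39.6% ± 3.96 in Pontin cTG (SD, n = 3 each), a difference of 3.42 percentage points (two-sided exact permutation test, p = 0.5). Dropping WT replicates 1 or 2 gave 5.22 and 0.688 points, and dropping Pontin cTG replicates 1 or 2 gave 1.31 and 5.23 points. The shares of *Tgfb2* (16.8% and 13.4%, p = 0.3) and *Tgfb3* (47.0% in both groups, p = 1) were compared by the same exact permutation test, in which 3 mice against 3 allow no p below 0.1.

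Among the latent TGF-beta binding proteins, *Ltbp4* far exceeded the others. It had 926, 722 and 872 normalised counts per kilobase in WT and 944, 996 and 653 in Pontin cTG, with the groups overlapping, and held 23.0% to 31.3% of all counts of the pathway genes in a library. No other pathway gene came near it, since the next, *Bmpr1a*, had a mean of 239 per kilobase and a highest library of 272. *Ltbp3* lay between 51.2 and 81.6 and was close to *Ltbp1* in level. *Ltbp2* was the variable member, at 12.4, 20.0 and 12.6 normalised counts per kilobase in WT and 14.3, 64.9 and 3.70 in Pontin cTG. The highest and the lowest library were both Pontin cTG hearts, and the log2 fold change of 0.89 (standard error 0.81) turned to -0.75 without replicate 2.

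**Figure D3:**
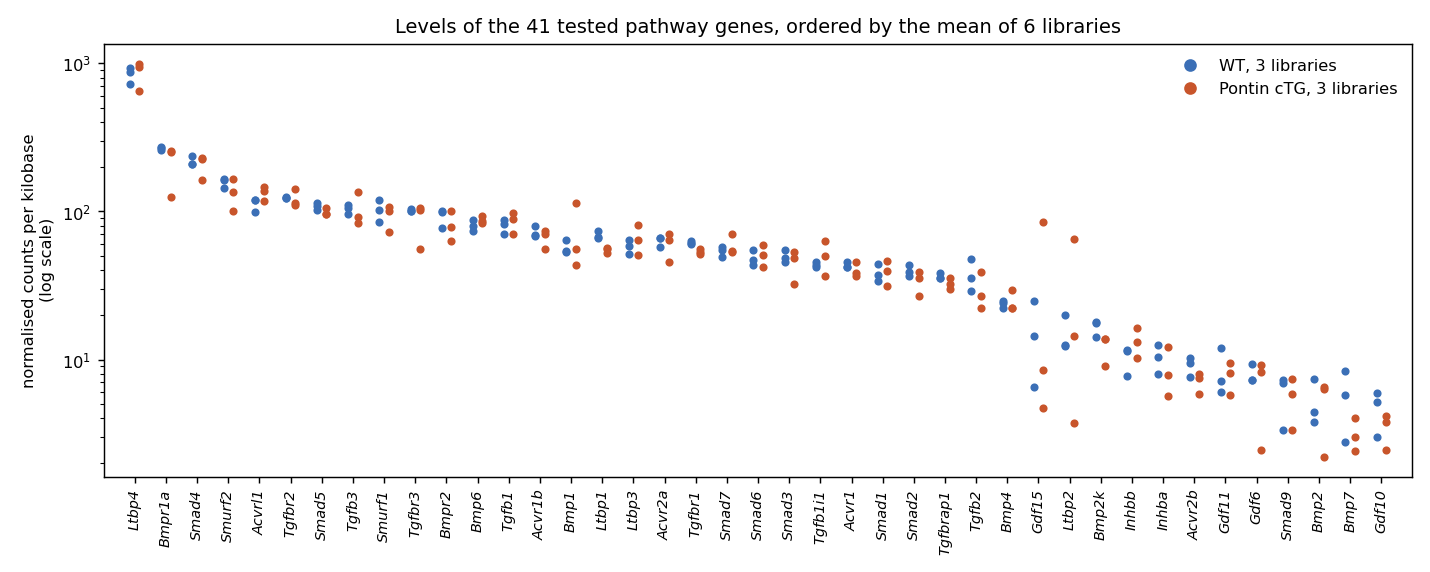
Level of each tested pathway gene in normalised counts per kilobase (y axis, log scale), ordered by the mean of the 6 hearts, with WT hearts in blue and Pontin cTG hearts in orange. *Ltbp4* leads at a mean of 852, *Bmpr1a* (239) and *Smad4* (212) follow, and *Gdf15* and *Ltbp2* each have a single Pontin cTG heart far above the others.

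Of the 20 BMP and GDF ligands, 8 passed the filter on low counts, and the groups of all 8 overlapped. *Bmp6*, known from iron regulation and endothelial signalling, was the most abundant at 73.3 to 93.6 normalised counts per kilobase over the 6 hearts, without overlap with any other BMP or with *Gdf11*, *Gdf6* and *Gdf10*. *Bmp4*, a ligand of cardiac development, gave 24.98, 24.0 and 22.4 in WT and 22.1, 29.7 and 22.3 in Pontin cTG (log2 fold change 0.06, standard error 0.23). *Bmp7*, often described as a counterpart of TGF-beta in fibrosis, was low, at 5.75, 2.79 and 8.34 in WT and 2.43, 4.05 and 3.02 in Pontin cTG. WT replicate 2 lay within the Pontin cTG range, and the log2 fold change was -0.82 (standard error 0.46), or -0.42 without WT replicate 3.

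*Gdf15*, a secreted stress-response factor, had 11, 41 and 24 raw counts in the WT libraries and 16, 185 and 10 in the Pontin cTG libraries. Per kilobase this was 6.54, 24.8 and 14.5 normalised counts in WT and 8.43, 85.5 and 4.68 in Pontin cTG. Replicate 2 of Pontin cTG stood above all other hearts while replicate 3 was the lowest. The log2 fold change of 1.11 (standard error 1.00) became -1.22 without replicate 2, so its direction rested on that library.

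The 2 inhibin beta subunits that passed the filter form activins, and both were low. *Inhba* ranged from 7.93 to 12.5 normalised counts per kilobase in WT and from 5.63 to 12.1 in Pontin cTG. *Inhbb* ranged from 7.76 to 11.6 in WT and from 10.3 to 16.3 in Pontin cTG.

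Of 13 receptor and co-receptor genes, 10 passed the filter, and 9 of these 10 had a log2 fold change below 0. Without Pontin cTG replicate 2 this was 6 of 10, and 8 of 10 under library size alone or in limma-voom. Apart from *Tgfbr1* and *Bmpr1a*, described above, their groups overlapped. The exception in direction was *Acvrl1* (ALK1), an endothelial type I receptor, with 120, 99.2 and 120 normalised counts per kilobase in WT and 137, 146 and 118 in Pontin cTG. *Tgfbr2*, the type II receptor for TGF-beta, gave 124, 126 and 122 in WT and 141, 115 and 111 in Pontin cTG (log2 fold change -0.02, standard error 0.14). WT hearts were tightly grouped here and Pontin cTG hearts lay on both sides of them. *Tgfbr3* (betaglycan), a co-receptor that presents TGF-beta, was at 101, 101 and 104 in WT and at 106, 56.0 and 103 in Pontin cTG. As with *Bmpr1a*, only replicate 2 of Pontin cTG was far from the rest. The type II receptors *Bmpr2* and *Acvr2a*, for BMPs and activins, also had their lowest value in that library, at 63.2 and 45.5, and *Acvr2b* at 5.89.

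The Smads were led by *Smad4*, the common partner of both branches, with a mean of 212 normalised counts per kilobase over the 6 hearts, followed without overlap by *Smad5* (104), a BMP-branch Smad. *Smad7* (56.6), *Smad6* (49.6), *Smad3* (47.1), *Smad1* (38.8) and *Smad2* (36.8) followed, each with a range that overlapped the next, and *Smad9* (5.70) was the lowest, below all of them.

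*Smad3*, the main TGF-beta transducer in fibroblasts, had 48.3, 45.3 and 54.7 normalised counts per kilobase in WT and 48.8, 32.4 and 52.8 in Pontin cTG (log2 fold change -0.15, standard error 0.19). Only replicate 2 of Pontin cTG was below the WT range. *Smad2* ranged from 36.5 to 43.4 in WT and from 26.9 to 39.1 in Pontin cTG (log2 fold change -0.23, standard error 0.16). *Smad4* gave 209, 236 and 210 in WT and 229, 162 and 225 in Pontin cTG (log2 fold change -0.09, standard error 0.16). Without Pontin cTG replicate 2 the estimates were -0.09 for *Smad2*, 0.041 for *Smad3* and 0.054 for *Smad4*.

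*Smad7*, which recruits Smurf ligases to the TGF-beta receptor, had 57.5, 54.6 and 49.5 normalised counts per kilobase in WT and 53.1, 70.6 and 54.4 in Pontin cTG (log2 fold change 0.14, standard error 0.15). Its highest library was again replicate 2, without which the estimate was -0.0014. *Smad6*, an inhibitor of BMP Smads, ranged from 43.2 to 55.0 in WT and from 42.5 to 59.1 in Pontin cTG. Together, *Smad6* and *Smad7* made up 18.1% ± 1.29 of the summed Smad level in WT and 20.7% ± 2.79 in Pontin cTG (SD, n = 3 each), a difference of 2.53 percentage points (two-sided exact permutation test, p = 0.3). It was 0.919 points without Pontin cTG replicate 2. *Smurf2* ranged from 145 to 166 in WT and from 100 to 166 in Pontin cTG, and *Smurf1* from 84.6 to 119 and from 72.7 to 108, with the lowest value of each in Pontin cTG replicate 2.

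Spread between hearts was larger in Pontin cTG. Of the 41 genes, 32 had a larger SD of normalised counts in Pontin cTG than in WT, against 69.5% of all genes tested, and the median coefficient of variation was 22.8% in Pontin cTG and 10.7% in WT. Replicate 2 held the highest value of 11 genes (26.8%) and the lowest of 16 (39.0%), beside 30.2% and 30.7% of all genes. Replicate 3 held the lowest value of 12 (29.3%, beside 17.7% of all genes). Apart from *Inhba* and *Tgfbrap1*, the genes lowest in replicate 2 were receptors, Smads and Smurfs.

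**Figure D4:**
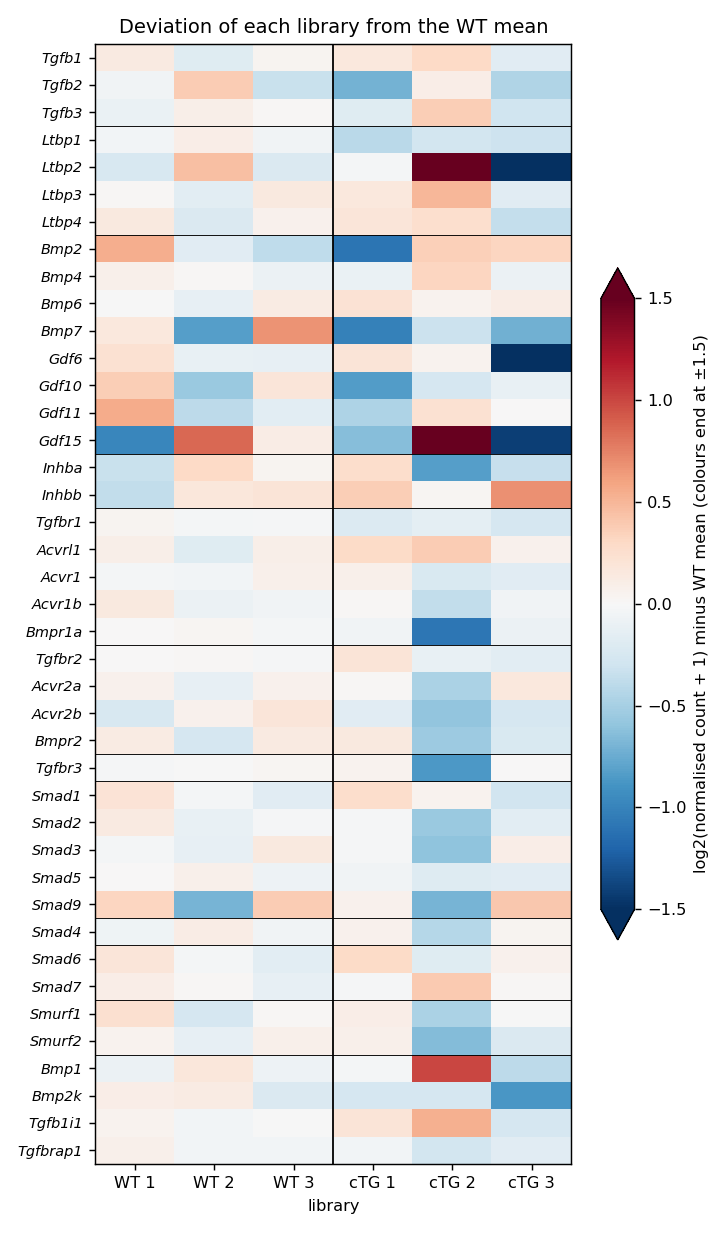
Deviation of each library (columns) from the WT mean for the 41 tested pathway genes (rows, in order of role), as log2 of the normalised count plus 1; red is higher, blue is lower, and colours end at 1.5 in either direction. The replicate 2 column of Pontin cTG combines red for *Ltbp2*, *Gdf15* and *Bmp1* with blue over most receptors, Smads and Smurfs.

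Relative to the mean of the other 5 libraries, Pontin cTG replicate 2 was more than 2 times higher for 3 pathway genes (7.32%, against 3.90% of all genes): 7.25 times for *Gdf15*, 5.15 times for *Ltbp2* and 2.11 times for *Bmp1*, a metalloprotease that cleaves procollagen. It was under 0.67 times for 6 (14.6%, against 12% of all genes), namely *Bmpr1a*, *Tgfbr3*, *Smad9*, *Inhba*, *Smurf2* and *Smad3*. The summed activated fibroblast markers were highest in this library. Summed over 6 genes, none at 0 in all hearts, their level was 1185 normalised counts per kilobase there against 167 to 578 in the other hearts. The sum includes *Ltbp2*, already picked out for this library. Of the 5 tested, 4 had a higher and 1 a lower estimate in Pontin cTG. The summed level of the 8 fibroblast markers was not the highest there, at 7718 within a range of 6461 to 7916. *Nppa*, the atrial natriuretic peptide gene that ventricles express under load, had 7716 normalised counts in replicate 2 and 360 to 1842 elsewhere. The 7 endothelial markers summed to 3361 normalised counts per kilobase against 2231 to 2581. The part of these cells or of load in the pathway values was not tested. In RNA of whole hearts, fewer cells of a type and less RNA per cell cannot be told apart.

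**Figure D5:**
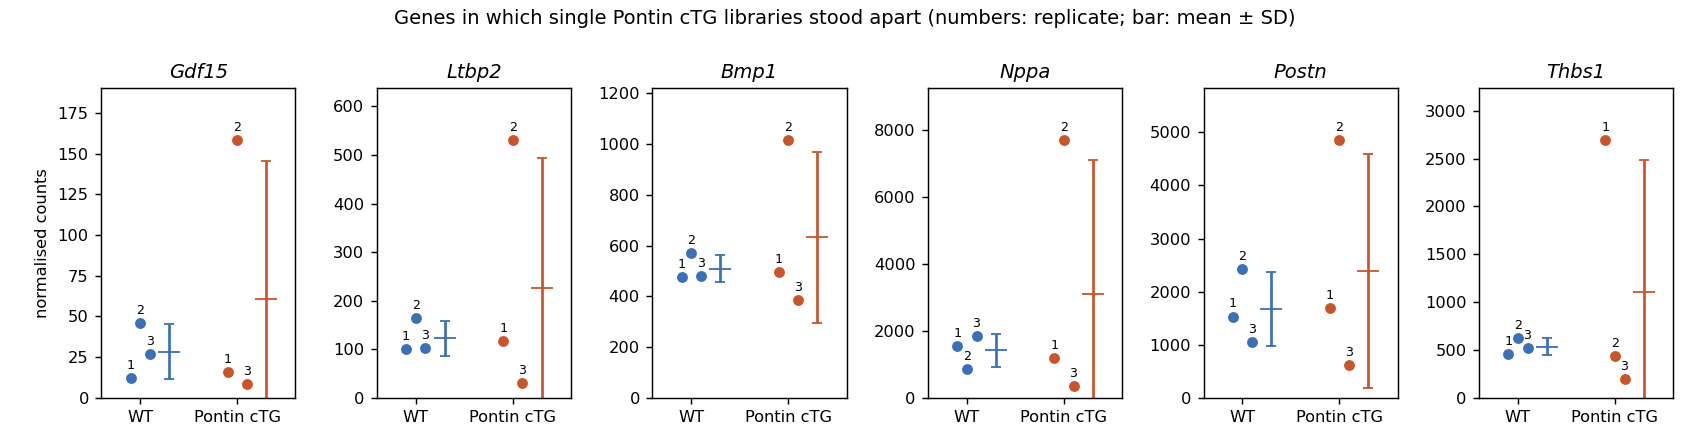
Normalised counts (y axis, from 0) of 6 genes in which a single Pontin cTG heart stood apart: the pathway genes *Gdf15*, *Ltbp2* and *Bmp1*, the load marker *Nppa*, the activated fibroblast marker *Postn* and the latent TGF-beta activator *Thbs1*. Points are hearts numbered by replicate and bars are mean ± SD of 3 hearts, clipped at 0; replicate 2 is highest in all but *Thbs1*, where replicate 1 is, and *Nppa*, *Postn* and *Thbs1* were chosen after their values were seen.

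The other genes of the pathway were taken from lists, and 0 of them reached an adjusted p under 0.05 (edgeR quasi-likelihood, Benjamini-Hochberg). Among extracellular antagonists, 8 of 17 were tested, 4 with a higher and 4 with a lower estimate. *Fstl3*, which binds and neutralises activins, was at 62.8, 53.8 and 60.4 normalised counts in WT and at 46.9, 30.8 and 35.5 in Pontin cTG, without overlap (log2 fold change -0.65, standard error 0.26, unadjusted p = 0.0335). It was the 1 of these 8 with groups apart (12.5%, against 8.33% of all genes in either direction). All 16 genes for activation and storage of latent TGF-beta were tested, 8 of them higher and 8 lower, none with an unadjusted p under 0.05. *Thbs1*, the thrombospondin that frees TGF-beta from its latent complex, had 454, 626 and 520 normalised counts in WT and 2694, 435 and 197 in Pontin cTG, so that replicate 1 alone was far higher. *Fmod*, a matrix proteoglycan that binds TGF-beta, was highest in replicate 2 of Pontin cTG at 253 against 7.71 to 49.4 in the other hearts.

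Of 6 further co-receptors and pseudoreceptors, 5 were tested. *Bambi*, a receptor lacking the kinase domain that dampens TGF-beta signals, had 213, 262 and 215 normalised counts in WT and 150, 193 and 191 in Pontin cTG (log2 fold change -0.37, standard error 0.16, unadjusted p = 0.0486). The groups did not overlap, in this 1 of the 5 (20%, against 8.33% of all genes in either direction). Among 13 nuclear partners and repressors of Smads, 11 were tested, 3 higher and 8 lower, with a median log2 fold change of -0.13. In 3 of these the groups were apart, all lower in Pontin cTG (27.3%, against 3.63% of all genes tested). *Zeb2*, a repressor that binds Smads, had 653, 737 and 520 in WT and 472, 349 and 493 in Pontin cTG (log2 fold change -0.54, standard error 0.18, unadjusted p = 0.0149). *Zfyve16*, an endosomal anchor for Smads, had 341, 405 and 347 against 291, 280 and 272 (log2 fold change -0.37, unadjusted p = 0.0168). *Trim33*, a ubiquitin ligase that acts on Smad4, had 367, 368 and 355 against 322, 271 and 279 (log2 fold change -0.32, unadjusted p = 0.0311). All 10 genes of the TAK1 branch, the Smad-independent kinase route, were tested, 3 with a higher and 7 with a lower estimate and none at an unadjusted p under 0.05. Of 5 other ligands of the family 1 was tested, *Lefty1*, at 5.51 to 25.7 normalised counts.

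Known target genes had estimates on both sides of 0. Of 21 TGF-beta and Smad3 targets 19 were tested, 13 with a higher and 6 with a lower estimate, at a median log2 fold change of 0.09. *Sphk1* (1.02, standard error 0.43, unadjusted p = 0.0426) and *Junb* (0.56, standard error 0.23, unadjusted p = 0.0382) had the smallest p, but both overlapped WT through Pontin cTG replicate 3. They were the 2 of 19 with an unadjusted p under 0.05, beside 2.05% of all genes. *Ccn2*, the connective tissue growth factor gene, had 1096, 1013 and 1455 normalised counts in WT and 1938, 1158 and 776 in Pontin cTG. As in *Thbs1*, Pontin cTG replicate 1 was the highest heart. Collagen genes varied with single hearts: *Col1a1* ranged from 1751 to 2560 normalised counts in WT and from 1209 to 3020 in Pontin cTG.

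Of 15 BMP and Smad1/5 targets 11 were tested, 5 with a higher and 6 with a lower estimate, and the median log2 fold change was -0.03. *Tbx20*, a cardiac transcription factor, was the single gene with groups apart (9.09%, against 8.33% of all genes in either direction). It had 1860, 1781 and 1717 normalised counts in WT and 1641, 1128 and 1461 in Pontin cTG (log2 fold change -0.34, standard error 0.16). *Id1*, the immediate BMP target that encodes an inhibitor of bHLH factors, gave 412, 377 and 431 in WT and 342, 613 and 366 in Pontin cTG, with replicate 2 the highest heart and the groups overlapping. *Ccn2*, *Col1a1*, *Id1*, *Fmod* and *Lefty1* were named after their values were seen.

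The remaining 17 pathway genes had too few counts to be tested. *Bmp8a*, *Inhbe*, *Gdf1* and *Gdf2* had 0 counts in all 6 libraries, and 3 counts per library is the limit that a count of 0 allows, for counting error only. Another 9 had 1 to 9 counts in all libraries together. Among these was *Bmp10*, the atrial BMP of the adult heart, with 1 count. The atrial markers *Sln* and *Myl7* were also under 10 counts in every library. The other 3 atrial markers were tested, all with estimates above 0 (log2 fold change 0.74 to 1.13). Just outside the filter stood *Bmp5* with 6 to 9 counts per library (45 in all), together with *Tgfbr3l*, *Gdf9* and *Bmpr1b*, whereas the smallest total among tested genes was 104.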

How the data were processed

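RNA-seq libraries of 3 Pontin cTG and 3 WT hearts, each after Ang-II, were compared. The deposited values are whole-number counts per gene, which the authors did not normalise, in a table of 56748 genes. The methods of the study name Trimmomatic, STAR, mm10 and Gencode M25. The submitters' processing notes instead list fastp, HISAT2, featureCounts and DESeq2 with GRCm39. Which tools made the counts could not be settled. For most pathway genes the positions in the table were not those of GRCm38 (mm10), and the positions were not used. In GENCODE M21 on GRCm38, 2 of the 58 have the same start and end, and all 58 the same chromosome. Whether the counting used strand is not given in the sources used here, so reads of overlapping genes on opposite strands may be shared, and reads shared by near-identical genes may be split. All sample columns matched a sample by the name given in the labels (0 were left unmatched).

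Genes were filtered with filterByExpr (minimum count 10) and tested for genotype, with no other term, by quasi-likelihood in edgeR 4.0.16 (TMM, robust glmQLFit, R 4.3.3). P-values of all 13888 genes tested were adjusted by Benjamini-Hochberg. Standard errors were obtained as the absolute log2 fold change over the root of F. The common biological coefficient of variation was 0.197. Totals of 12436822 to 16888124 counts per library set the counting precision, and limits for counts of 0 cover counting error only. Shares were compared by two-sided exact permutation tests over hearts. No pair of libraries agreed within sampling noise (chi-square per gene of at least 5.54). The labels call the samples biological replicates. Alternatives were DESeq2 1.42.0, its size factors within edgeR, library size alone, 2 other filters on low counts, protein-coding genes alone, omission of mitochondrial genes, limma-voom (limma 3.58.1) with sample quality weights, the replicate number as a block, and each library left out in turn. The tests were run first on simulated data (200 genes changed).

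The pathway genes and lists were chosen with earlier results of these data known. Fold changes are given for tested pathway genes with an unadjusted p under 0.05, groups that do not overlap or a log2 fold change of at least 0.5 in size, and for the ligands, receptors and Smads *Tgfb1*, *Tgfb2*, *Tgfb3*, *Tgfbr1*, *Tgfbr2*, *Smad2*, *Smad3*, *Smad4*, *Smad7*, *Bmp4*, *Bmp10* (which was not tested) and *Gdf15*. Of the other pathway lists, at most 4 genes each with an unadjusted p under 0.05 or groups apart are named, and any further gene was named after its values were seen. Of the remaining marker lists, smooth muscle and pericyte (3644 to 4280 normalised counts per kilobase), macrophage (2723 to 5241), erythroid (14813 to 28361), epicardial (8.33 to 16.4) and adipocyte (0 to 3.89) sums are given as ranges over the 6 hearts. Among the marker lists, *Tnni3* and *Myl2* lay above WT and *Actc1* and *Csf1r* below in every Pontin cTG heart. These are 3 of 9 cardiomyocyte markers (33.3%) and 1 of 8 macrophage markers (12.5%), against 8.33% of all genes in either direction. The other marker lists had none. *Mrc1*, with overlapping groups, had an unadjusted p of 0.0484 (edgeR quasi-likelihood). Upstream sequences are from RefSeq on GRCm38.p6.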

Additional observations from a re-analysis of the deposited data

How the results depend on the processing

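No pathway gene passed an adjusted p of 0.05 under any of the 15 alternatives. Over all genes, the count of 0 became 1 in DESeq2, 3 without a filter on low counts, 3 in limma-voom, and 0 to 3 when each library was left out (3 without Pontin cTG replicate 2). Pathway genes at an unadjusted p under 0.05 numbered 3 without a filter (5.56%, against 1.86% of all genes), 7 in limma-voom (17.1% against 5.72%) and 0 to 3 with a library left out (all genes 0.847% to 4.91%). The 3 without Pontin cTG replicate 2 or 3 compare with 4.91% and 2.87% of all genes, and the 0 was without WT replicate 1. Whether replicate numbers pair the hearts could not be settled, since deviations from means of 3 hearts depend on one another. Same-numbered deviations correlated at 0.07, 0.43 and 0.19, and WT replicate 1 correlated best with Pontin cTG replicate 3 (0.25). With the replicate block, 2 pathway genes had an unadjusted p under 0.05 (*Bmp2k* and *Ltbp1*; 4.88%, against 3.59% of all genes), and no adjusted call changed. Pathway genes with groups apart numbered 3 under library size alone (all lower, against 3.36% of all genes) and 5 to 12 with a library left out. With fewer libraries this rule is looser for every gene. The 8 without WT replicate 2 and the 12 without Pontin cTG replicate 1 were all lower, against 8.02% and 9.75% of all genes. Without Pontin cTG replicate 2, 8 were lower (10.5% of all genes) and 1 higher (11%). Without Pontin cTG replicate 3, 4 were lower (8.48%) and 5 higher (9.38%). The median log2 fold change of the pathway genes ran from -0.17 to -0.05.

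Of 255 fold changes recomputed, 23 changed sign, in 9 genes. Under library size alone these were *Tgfb3* (0.036) and *Tgfbr2* (0.010), and with at least 10 counts in every library *Tgfb3* (0.0038). In limma-voom they were *Tgfb1* (-0.012), *Ltbp2* (-0.38), *Bmp4* (-0.089), *Gdf15* (-0.23), *Tgfbr2* (0.060), *Smad4* (0.065) and *Smad7* (-0.0044). With a library left out, the range was -0.0021 to 0.22 for *Tgfb1*, -0.24 to 0.12 for *Tgfb3*, -0.75 to 1.41 for *Ltbp2*, -0.095 to 0.14 for *Bmp4*, -1.22 to 1.65 for *Gdf15*, -0.13 to 0.046 for *Tgfbr2*, -0.28 to 0.041 for *Smad3*, -0.17 to 0.054 for *Smad4* and -0.0014 to 0.23 for *Smad7*. Causes were not tested. Both share differences stayed above 0, from 0.688 to 5.23 points (*Tgfb1*) and 0.919 to 3.38 (*Smad6* and *Smad7*). Low counts limit *Bmp7*, *Gdf15* and other scarce ligands, and 3 hearts per group limit every test.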
